A study of Mus musculus with 43 samples.

Results

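The 8 genes described here carry out the uptake and first metabolic steps of glutamate, GABA and glycine: Slc1a2, Slc1a3, Glul, Slc6a11, Slc38a3, Slc6a9, Glud1 and Abat. They were chosen by name, and their rows were read from the gene counts of 43 mouse libraries, 8 of 55416 genes in each. The libraries came from glia purified from the cerebral cortex of 3-month-old mice by immunopanning, in which the cells of a suspension bind in turn to dishes coated with antibodies. Microglia were taken with anti-CD45, oligodendrocyte precursor cells (OPCs) with anti-PDGFRA, oligodendrocytes with the GalC hybridoma and astrocytes with anti-HepaCAM, in that order. Rag2-/- mice, which carry the B6.Cg-Rag2tm1.1Cgn/J allele in every cell and lack mature lymphocytes, were compared with immunocompetent littermates. The controls were Rag2+/- in pairs 1, 2, 3 and 5 and Rag2+/+ in pairs 4 and 6. Both sexes were used, and all mice were born in a single colony to heterozygous parents. Astrocytes and microglia had 6 control and 6 Rag2-/- libraries each, OPCs had 6 and 5, and oligodendrocytes had 4 and 4. Because each library is RNA from many cells, fewer cells of a type and less RNA per cell cannot be told apart.

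Glutamate and GABA released at synapses are cleared mainly by carriers in the membrane of astrocytes, which draw on the sodium gradient. Inside the astrocyte, glutamate is joined to ammonia to make glutamine or is oxidised in mitochondria, and glutamine is passed back to neurons. GABA is broken down by a transaminase, and glycine is cleared by a carrier of its own.

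Each library held 6499417 to 23118497 gene counts. Mitochondrial genes took 45.8% to 60.1% of them in oligodendrocytes, 22.5% to 45.1% in astrocytes, 22.4% to 36.7% in OPCs and 6.75% to 11.7% in microglia. Levels are therefore given as normalised CPM, read counts scaled to a common library size with TMM factors over all 43 libraries. Each type was checked against its defining markers. The summed level of 8 astrocyte markers, among them Aqp4, Gfap and Aldh1l1, ran from 3177 to 4124 normalised CPM in astrocyte libraries. It ran from 242 to 910 in OPCs, from 87.7 to 419 in oligodendrocytes and from 11.9 to 33.7 in microglia, with none of the 8 at 0 in any group. The highest of these values belonged to the Rag2-/- library of pair 1 among OPCs and to the control library of pair 6 among oligodendrocytes. Oligodendrocyte markers (8) summed to 10520 to 16062 in oligodendrocyte libraries, 1380 to 3755 in astrocytes and 184 to 871 in OPCs. OPC markers (7) summed to 4243 to 6170 in OPCs, 529 to 1948 in oligodendrocytes and 54.2 to 330 in astrocytes. Microglial markers (8) summed to 8121 to 10286 in microglia and at most 1212 in the other types. The part of oligodendrocyte RNA in the astrocyte levels was not tested. Rag2 itself had 6 counts in all, none of them in Rag2-/- libraries, which is too few to check the genotype labels.

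All 8 genes are protein-coding, and their positions in GRCm39 follow. Slc1a2 lies at chr2:102488574-102621129 on the plus strand, 1.03 Mb from Rag2. Slc1a3 lies at chr15:8663604-8741595 on the minus strand and Glul at chr1:153775690-153785469 on the plus strand. Slc6a11 lies at chr6:114108200-114226913 and Abat at chr16:8331233-8439996, both on the plus strand. Slc38a3 lies at chr9:107527815-107547018 on the minus strand. Slc6a9 lies at chr4:117691703-117732395 and Glud1 at chr14:34032583-34067642, both on the plus strand. Of the exonic bases of Slc6a9, 33.8% overlap genes on the other strand, and whether reads were counted by strand is not given in the sources used here. Exact copies elsewhere in the genome were found for 20.8% of the 50-base windows of the Glul transcript and 16.4% of those of Glud1, so reads of these 2 genes could have been lost or shared.

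The 200 bases before the start of the canonical transcript are shown for the 4 genes where this stretch meets no annotated exon, since these are among the genes whose levels moved together between cell types. Capitals mark matches to the GC box (GGGCGG), the NFI core (TTGGCA), the SOX core (ACAATG), the TATA box (TATAAA) or the CCAAT box (CCAAT), searched on both strands. Each is printed 5′ to 3′ on the strand of its gene.
Slc1a2, chr2:102488374-102488573, plus strand: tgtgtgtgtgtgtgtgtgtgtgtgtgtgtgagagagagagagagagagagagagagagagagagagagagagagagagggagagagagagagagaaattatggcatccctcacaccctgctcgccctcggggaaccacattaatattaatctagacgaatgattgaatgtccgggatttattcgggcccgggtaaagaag
Slc6a11, chr6:114108000-114108199, plus strand: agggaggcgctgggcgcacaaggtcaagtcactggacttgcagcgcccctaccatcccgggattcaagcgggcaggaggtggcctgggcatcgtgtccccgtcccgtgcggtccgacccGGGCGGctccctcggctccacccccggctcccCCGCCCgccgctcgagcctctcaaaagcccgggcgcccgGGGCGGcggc
Slc38a3, chr9:107545182-107545381, minus strand: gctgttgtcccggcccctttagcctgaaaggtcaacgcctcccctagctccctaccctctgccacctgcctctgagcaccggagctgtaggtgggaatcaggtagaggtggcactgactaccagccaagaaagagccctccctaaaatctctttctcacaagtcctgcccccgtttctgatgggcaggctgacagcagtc
Abat, chr16:8331033-8331232, plus strand: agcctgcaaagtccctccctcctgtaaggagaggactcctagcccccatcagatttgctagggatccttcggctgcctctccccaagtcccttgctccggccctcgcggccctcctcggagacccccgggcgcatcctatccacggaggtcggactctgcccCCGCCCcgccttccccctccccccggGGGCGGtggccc
The GC box matched 3 times before Slc6a11 and 2 times before Abat, and it matched in 34.8% of 21627 windows of this length before protein-coding genes. None of the 5 motifs matched before Slc1a2 or Slc38a3. The shares of all windows with a match were 9.8% for the NFI core, 7.6% for the SOX core, 9.6% for the TATA box and 32.3% for the CCAAT box. GC content was 49.0% before Slc1a2, 58.5% before Slc38a3, 70.0% before Abat and 75.0% before Slc6a11, against a median of 54.5% over all windows.

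Across cell types, 7 of the 8 genes were highest in astrocytes, and Slc6a9 was highest in oligodendrocytes. Libraries of a cell type shared a sequencing lane and a place in the panning order. Neither can be told apart from cell type in these contrasts. Of the 21368 genes tested over all libraries, 17.1% were called higher in astrocytes than in OPCs, 24% higher than in oligodendrocytes and 36.5% higher than in microglia (edgeR quasi-likelihood test, Benjamini-Hochberg adjusted p under 0.05). Of the 8, 7 were called higher in astrocytes than in OPCs, 7 higher than in oligodendrocytes and 8 higher than in microglia. All counts and medians against microglia in this paragraph include Slc6a9, which had 1 to 18 reads in microglial libraries. Slc6a9 passed the low-count filter of this fit through the other types, so its calls against microglia carry no weight of their own. The median log2 difference of the 8 genes was 2.22 against OPCs, 2.85 against oligodendrocytes and 5.97 against microglia, where the medians over all genes tested were -0.14, 0.01 and 0.09. Against OPCs 0 members were called lower in astrocytes, where 25.4% of all genes were, and against microglia 0, where 33.5% were. The 1 member called lower was Slc6a9, against oligodendrocytes, where 25.7% of genes were called lower. OPCs were called higher than oligodendrocytes for 5 members and lower for 2 (25% and 15.7% of all genes), and higher than microglia for 7 and lower for 1 (38.7% and 30.8%). Oligodendrocytes were called higher than microglia for 7 members and lower for 0 (33.2% and 34.8%).

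**Figure D1:**
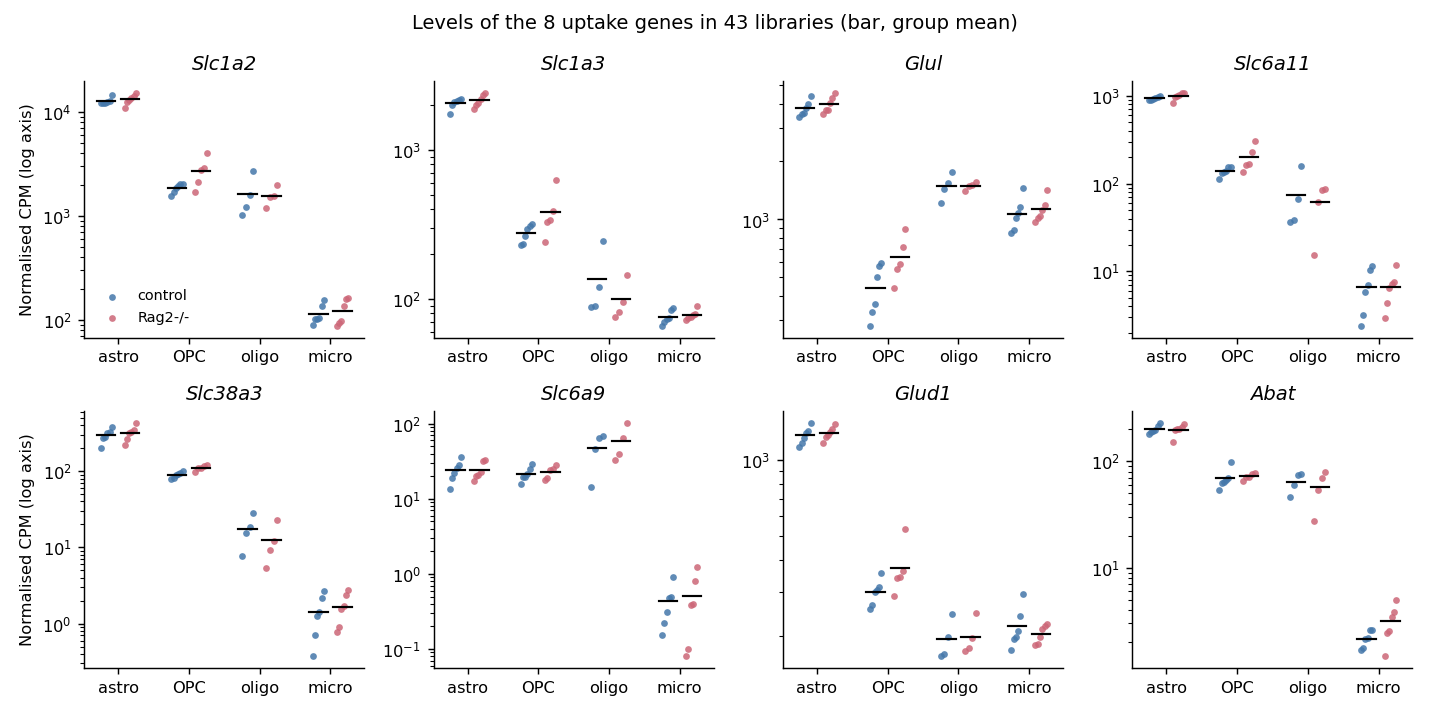
Normalised CPM (log axis) of the 8 uptake genes in each of 43 libraries, by cell type, with controls in blue, Rag2-/- in red and a bar at each group mean. Slc1a2 sits between 10906 and 15273 in astrocytes and between 87.8 and 164 in microglia, while Slc6a9 reaches its highest value, 103, in an oligodendrocyte library.

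Slc1a2, which encodes the glutamate carrier GLT-1, was highest in astrocytes by a wide margin. In astrocytes its normalised CPM ran from 10906 through a median of 12586 to 15273, with a mean of 12933 ± 1240 (SD, n = 12). In OPCs it ran from 1559 through 2007 to 3986, in oligodendrocytes from 1021 through 1527 to 2734, and in microglia from 87.8 through 104.5 to 164. No astrocyte library overlapped any other type, while OPC and oligodendrocyte libraries overlapped each other. The astrocyte level was 5.81 times that of OPCs (log2 difference 2.54 ± 0.14 SE), 8.08 times that of oligodendrocytes and 108.5 times that of microglia. The difference between OPCs and oligodendrocytes was 0.48 ± 0.15 on the log2 scale (edgeR adjusted p = 0.0105), and it lost its call without the mouse Rag2-/- of pair 1 (0.36, adjusted p = 0.0834) or without the control mouse of pair 3 (0.39, adjusted p = 0.0625), and likewise by DESeq2 and in control libraries alone.

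Slc1a3, which encodes the glutamate carrier GLAST, had 1735 to 2415 normalised CPM in astrocytes, with a mean of 2097 ± 186 (SD, n = 12). OPC libraries held 231 to 626, oligodendrocyte libraries 75.1 to 245 and microglial libraries 65.7 to 90.2. Microglia and oligodendrocytes overlapped, and both lay below every astrocyte library. The astrocyte level was 6.41 times that of OPCs, 18.1 times that of oligodendrocytes and 27.3 times that of microglia, each with an edgeR adjusted p of at most 7.28e-19. The ratio of Slc1a2 to Slc1a3 counts within a library, which is not per length and so is read only between cell types, had a median of 5.90 in astrocytes, 6.74 in OPCs, 13.6 in oligodendrocytes and 1.38 in microglia. The ranges of this ratio overlapped between astrocytes and OPCs, while oligodendrocytes (11.2 to 20.6) and microglia (1.08 to 2.37) each stood apart from the other types.

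Glul, which encodes glutamine synthetase, was present in every cell type and lowest in OPCs. Its normalised CPM was 3397 to 4553 in astrocytes, 1220 to 1772 in oligodendrocytes, 851 to 1455 in microglia and 280 to 892 in OPCs. The log2 difference of OPCs minus oligodendrocytes was -1.49 ± 0.13 and that of OPCs minus microglia was -1.05 ± 0.11 (edgeR adjusted p = 4.93e-13 and 9.41e-11). Every oligodendrocyte library exceeded every OPC library. Oligodendrocytes exceeded microglia by 0.44 ± 0.12 (edgeR adjusted p = 0.00172), a call that was lost in control libraries alone (0.40, adjusted p = 0.0769) and in Rag2-/- libraries alone (0.35, adjusted p = 0.0791). On total gene counts, mitochondrial genes included, the difference was -0.47, where the median over all genes moved from -0.09 to -0.98, so that relative to this median Glul stood at 0.53 on the reported scale and 0.51 on total gene counts.

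Slc38a3, which encodes the glutamine carrier SNAT3, ran from 204 to 429 normalised CPM in astrocytes. It ran from 79.4 to 119 in OPCs, from 5.36 to 27.8 in oligodendrocytes and from 0.373 to 2.73 in microglia, so that no pair of types overlapped. The astrocyte level was 2.99 times that of OPCs, 21.3 times that of oligodendrocytes and 193 times that of microglia. OPCs exceeded oligodendrocytes by 2.83 ± 0.23 on the log2 scale (edgeR adjusted p = 1.39e-13).

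Slc6a11, which encodes the GABA carrier GAT-3, had 819 to 1084 normalised CPM in astrocytes, with a mean of 963 ± 73.4 (SD, n = 12). OPC libraries held 112 to 304, oligodendrocyte libraries 15.2 to 160 and microglial libraries 2.39 to 11.8. Oligodendrocytes varied most, with an SD of 64.5% of the mean. The astrocyte level was 5.72 times that of OPCs, 14.1 times that of oligodendrocytes and 143 times that of microglia. Abat, the GABA transaminase, had 151 to 230 in astrocytes, 54.2 to 98.8 in OPCs, 27.4 to 79.3 in oligodendrocytes and 1.47 to 5.03 in microglia. Abat was called higher in astrocytes than in OPCs (log2 difference 1.49 ± 0.14) and oligodendrocytes (1.71 ± 0.16). OPCs and oligodendrocytes differed in Abat by 0.23 ± 0.15 (edgeR adjusted p = 0.249).

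Glud1, the mitochondrial glutamate dehydrogenase, had 1120 to 1398 normalised CPM in astrocytes, 255.5 to 530 in OPCs, 167 to 247 in oligodendrocytes and 176 to 295 in microglia. Astrocytes lay above all others and OPCs above oligodendrocytes without overlap. Oligodendrocytes and microglia differed by -0.11 ± 0.10 on the log2 scale (edgeR adjusted p = 0.358), a difference within the spread between libraries.

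Slc6a9, which encodes the glycine carrier GlyT1, followed another order. Its normalised CPM was 14.2 to 103 in oligodendrocytes, 13.3 to 35.8 in astrocytes, 15.9 to 29.2 in OPCs and 0.0802 to 1.24 in microglia. The control oligodendrocyte library of pair 5 was the lowest of its type, and the Rag2-/- library of pair 1 the highest. The log2 difference of astrocytes minus oligodendrocytes was -1.17 ± 0.26 and that of OPCs minus oligodendrocytes was -1.28 ± 0.26 (edgeR adjusted p = 0.000235 and 0.000142), with libraries that overlapped in both cases. On total gene counts, mitochondrial genes included, these differences were -0.55 and -0.27 and neither was called, but the medians over all genes moved with them, from 0.01 to 0.64 and from 0.24 to 1.25. Relative to the median over all genes the differences were -1.18 and -1.52 on the reported scale and -1.19 and -1.52 on total gene counts. Astrocytes and OPCs differed by 0.11 ± 0.24 (edgeR adjusted p = 0.741). Microglial libraries held 1 to 18 reads of this gene. Neuron markers were also highest in oligodendrocytes, where 7 of them summed to 584 to 3004 normalised CPM, against 115 to 343 in astrocytes and 272 to 624 in OPCs, and their part in the Slc6a9 levels was not tested.

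Between genes, levels are compared only per length. Per kb of annotated exon, the astrocyte means were 981 normalised CPM for Glul, 924 for Slc1a2, 190 for Slc6a11, 183 for Glud1, 144 for Slc1a3, 33.3 for Slc38a3, 20.7 for Abat and 3.97 for Slc6a9. Per kb of the canonical transcript alone, Glul stood at 2272, Slc1a2 at 1075 and Slc1a3 at 500, ahead of Glud1 at 322 and Slc6a11 at 233. The place of Slc1a3 thus depended on which length was used, since its annotated exons span 14595 bases and its canonical transcript 4195. In both orders Glul and Slc1a2 stood first and Slc6a9 last. The summed level of the 8 genes was 21656 ± 1286 normalised CPM in astrocytes, 3781 ± 1111 in OPCs, 3607 ± 645 in oligodendrocytes and 1519 ± 193 in microglia (SD over 12, 11, 8 and 12 libraries).

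Astrocyte RNA in the other dishes was set beside these levels. The 8 astrocyte markers stood at 8.35% to 15.2% of their astrocyte mean in OPCs, at 3.35% to 7.83% in oligodendrocytes and at 0.481% to 1.08% in microglia. In OPCs Glul stood at 13.7% of its astrocyte mean, within the marker range. Slc1a3 stood at 15.5%, Slc1a2 at 17.3% and Slc6a11 at 17.3%, just above it, and Glud1, Slc38a3, Abat and Slc6a9 stood at 26.4%, 32.2%, 35.5% and 92.1%. In oligodendrocytes Slc38a3 (4.86%), Slc1a3 (5.60%) and Slc6a11 (7.13%) lay within the marker range, and the other 5 lay above it. In microglia Slc38a3, Slc6a11 and Slc1a2 lay within the range at 0.504%, 0.697% and 0.922%. The other 5 lay above it, with Abat at 1.32%, Slc6a9 at 1.94%, Slc1a3 at 3.67%, Glud1 at 16.8% and Glul at 28.4%. Microglial libraries held 11 to 73 reads of Abat and 1 to 18 of Slc6a9, with SDs of 0.508% and 1.48% of the astrocyte mean. For Abat and Slc6a9 the place above the range thus rests on few reads. The part of astrocyte RNA in these levels was not tested. In oligodendrocyte libraries 7 neuron markers summed to 584 to 3004 normalised CPM, and the part of neuron RNA in the levels there was not tested either.

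**Figure D2:**
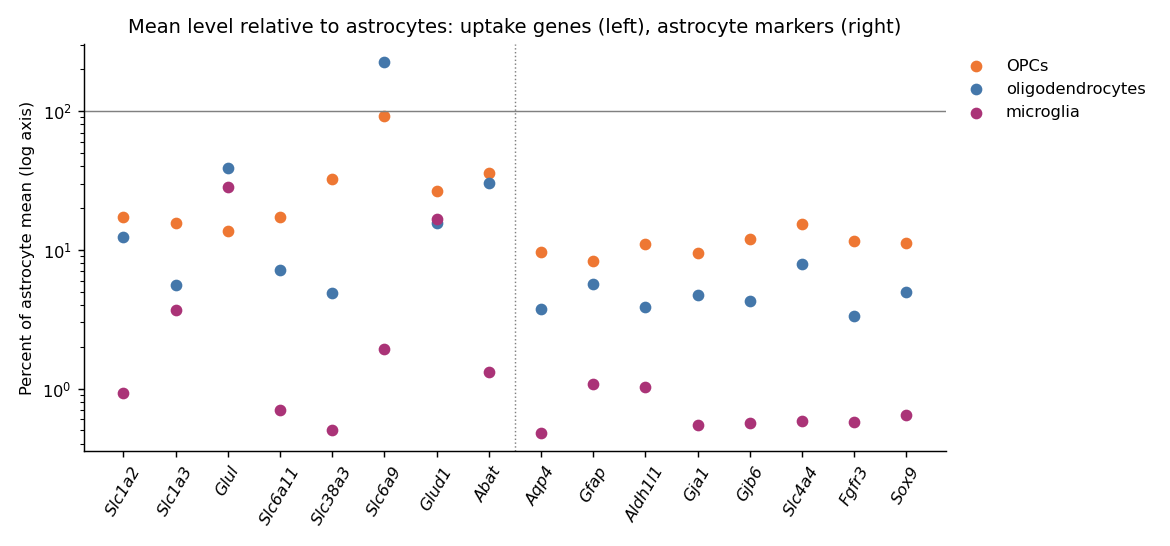
Mean level in OPCs, oligodendrocytes and microglia as a percent of the astrocyte mean (log axis), for the 8 uptake genes on the left and 8 astrocyte markers on the right. Glul and Glud1 in microglia stand at 28.4% and 16.8%, against at most 1.08% for the markers, and Slc6a9 in oligodendrocytes stands above the line at 100%.

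Over the 11 OPC libraries, 7 of the 8 genes rose and fell with the mean log2 level of the 8 astrocyte markers. The relation was not computed for other genes, so the share of all genes that followed these markers is not known. Permutations were made over all 11 libraries and did not keep the genotypes apart. For Slc6a11 Pearson's r was 0.94 and Spearman's rho 0.89 (permutation test, 2-sided, adjusted p = 8e-05 and 0.00098 over the 8 relations computed). For Slc1a2, Glul and Slc1a3 r was 0.93, 0.93 and 0.92 and rho 0.93, 0.95 and 0.96 (permutation adjusted p = 0.00014, 0.00014 and 0.00012 for r, and 0.000533, 0.00012 and 0.00012 for rho). Glud1, Slc38a3 and Slc6a9 had r of 0.85, 0.79 and 0.67 and rho of 0.87, 0.83 and 0.66 (permutation adjusted p = 0.00163, 0.00397 and 0.0271 for r, and 0.00165, 0.00353 and 0.0348 for rho). Abat did not follow the markers, with r of 0.11 and rho of 0.29 (permutation adjusted p = 0.747 and 0.385). Without the 2 libraries farthest from the median marker level, which were the Rag2-/- library of pair 1 and the control library of pair 5, r was 0.85 for Slc1a2, 0.86 for Slc1a3, 0.85 for Glul and 0.87 for Slc6a11. The relation of Glud1 then no longer held (r = 0.63, permutation adjusted p = 0.0815), so it rests on those libraries. Within the 6 control libraries r was 0.82 for Slc1a2, 0.82 for Slc1a3, 0.87 for Glul, 0.90 for Slc6a11, 0.62 for Slc38a3, 0.76 for Slc6a9, 0.50 for Glud1 and -0.10 for Abat. Correlations are given here only over 6 libraries or more, so none is read from the 5 Rag2-/- libraries. All libraries of a cell type were sequenced on the same lane, so no lane splits these 11.

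**Figure D3:**
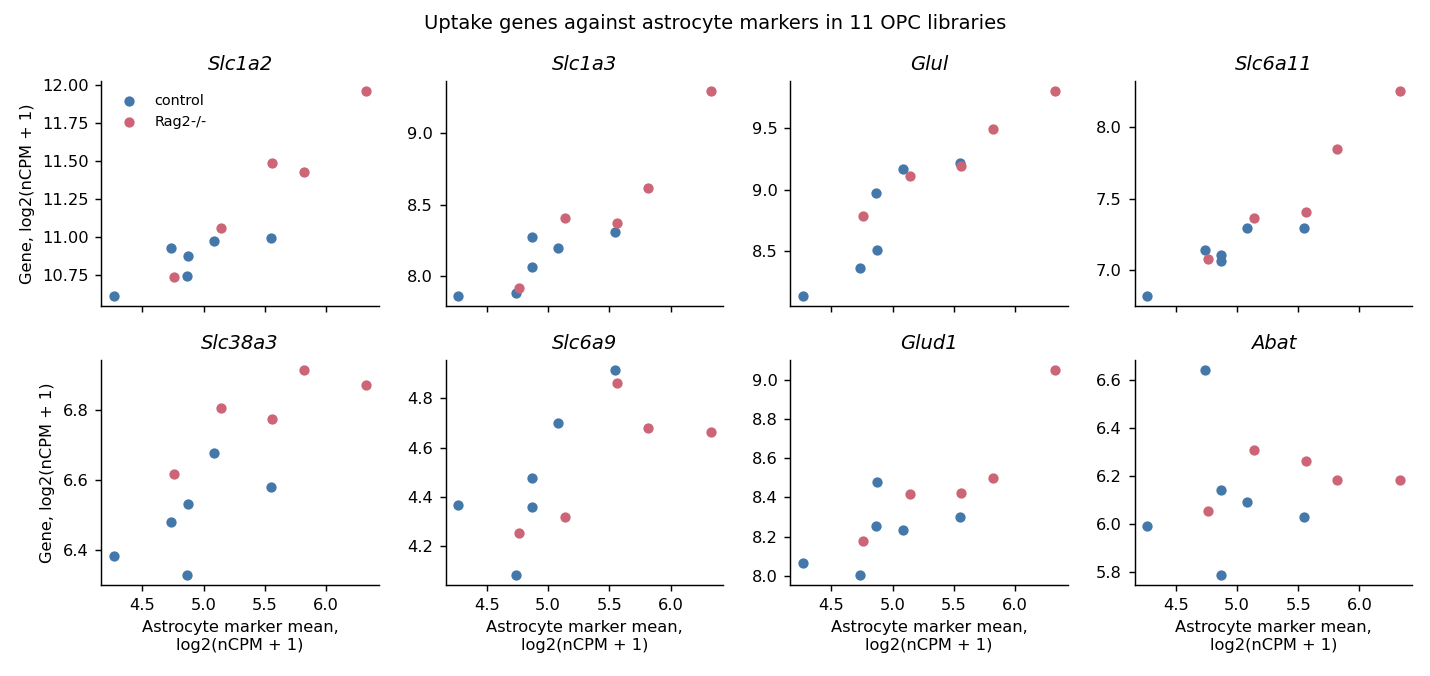
Level of each uptake gene, log2(normalised CPM + 1), against the mean log2 level of 8 astrocyte markers in 11 OPC libraries, controls in blue and Rag2-/- in red. Slc1a2, Slc1a3, Glul and Slc6a11 climb with the markers (r of 0.92 to 0.94), the Rag2-/- library at the far right is that of pair 1, and Abat shows no slope (r = 0.11).

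The comparison of Rag2-/- with control littermates addressed the question of how a lack of lymphocytes bears on gene expression in glia. No member was called in any cell type by edgeR's quasi-likelihood test, with adjusted p of at least 0.998 in each of the 4 types. Of all genes tested, 0.00679% were called in astrocytes, 0.00592% in OPCs, 0.00667% in microglia and 0% in oligodendrocytes. The single gene in each of the first 3 was Iftap, which overlaps Rag2 and was named after its values were seen. Iftap was lower in Rag2-/-, with log2 differences of -9.47 in astrocytes, -8.11 in OPCs and -7.48 in microglia. At an unadjusted p under 0.05, 5 members were found in OPCs and 0 in each of the other types, against 4.02% of all genes in OPCs, 2.87% in astrocytes, 3.38% in oligodendrocytes and 2.90% in microglia. DESeq2 called 0 members in every type, and of all genes it called 5 in OPCs, 1 in astrocytes, 3 in microglia and 203 in oligodendrocytes.

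In astrocytes, the type with the most of these transcripts, the 8 log2 differences lay between -0.03 and 0.07. Slc1a2 ran from 12040 through 12287 to 14640 normalised CPM in controls and from 10906 through 13171 to 15273 in Rag2-/- libraries, a difference of 0.07 ± 0.09. Glul ran from 3397 through 3680 to 4354 and from 3533 through 3878 to 4553, a difference of 0.07 ± 0.09. The groups overlapped for every member. In microglia the differences lay between -0.10 (Glud1) and 0.43 ± 0.35 (Abat), and Slc6a9 did not pass the low-count filter in that type, so its value (0.03 ± 0.84) comes from a fit without the filter. In oligodendrocytes they lay between -0.85 ± 0.54 (Slc38a3) and 0.71 ± 0.49 (Slc6a9), with 4 libraries a group. The value of Slc6a9 was 0.17 without the control library of pair 5 and 1.28 without the Rag2-/- library of pair 3.

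**Figure D4:**
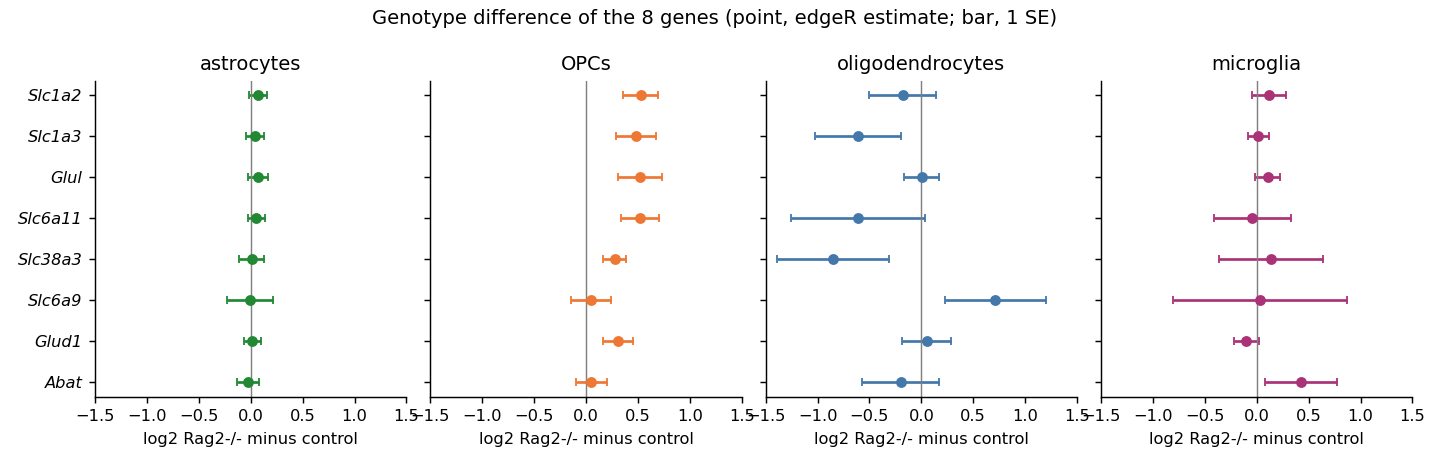
Log2 difference between Rag2-/- and control libraries for the 8 uptake genes in each cell type, as points with bars of 1 SE derived from edgeR's F statistic. Astrocyte points lie within 0.07 of 0, OPC points lie at 0.05 to 0.53, and the SE of oligodendrocyte values is 0.17 (Glul) to 0.65 (Slc6a11).

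In OPCs all 8 differences were above 0, with a median of 0.39 against -0.01 over all genes tested. For Slc1a2 the control libraries of pairs 1 to 6 held 1877, 2032, 1713, 1947, 1559 and 2007 normalised CPM, and the Rag2-/- libraries of pairs 1, 2, 3, 4 and 6 held 3986, 2758, 1702, 2866 and 2131. The Rag2-/- library of pair 1 was the highest and that of pair 3 lay among the controls, so the groups overlapped. The log2 difference was 0.53 ± 0.17 (edgeR, unadjusted p = 0.00775, adjusted p = 0.9998), higher in 4 of 5 pairs. For Slc6a11 the controls held 132, 156, 137, 140, 112 and 156 and the Rag2-/- libraries 304, 230, 134, 169 and 164, a difference of 0.52 ± 0.18. For Glul the controls held 364, 595, 502, 329, 280 and 575 and the Rag2-/- libraries 892, 721, 440, 585 and 551, a difference of 0.52 ± 0.21. The Rag2-/- library of pair 1 was the highest for all 3 genes, followed by that of pair 4 for Slc1a2 and that of pair 2 for the other two. For Slc1a3 the difference was 0.48 ± 0.19, and for Glud1 it was 0.30 ± 0.14. For Slc38a3 it was 0.28 ± 0.11 (edgeR, adjusted p = 0.9998), and the Rag2-/- library was the higher in 5 of 5 pairs, by 1.09 to 1.27 times. Pair 6 set a male control against a female Rag2-/- mouse, so its ratios mix sex with genotype. How many of all genes were higher in as many pairs was not counted. Slc6a9 and Abat differed by 0.05 ± 0.19 and 0.05 ± 0.15.

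The astrocyte markers moved with these OPC values. Their summed level was 242 to 468 normalised CPM in control OPC libraries and 267 to 910 in Rag2-/- libraries, highest in the Rag2-/- library of pair 1, and 7 of the 8 markers were higher in Rag2-/-, with a median log2 difference of 0.69. Without that library the differences fell to 0.33 for Slc1a2, 0.19 for Slc1a3, 0.27 for Slc6a11 and 0.33 for Glul, while that of Slc38a3 was between 0.24 and 0.33 over all libraries left out in turn. Without the low-count filter edgeR called 4 members higher in Rag2-/- OPCs, among 90 genes. The edgeR adjusted p was 0.00014 for Slc1a2, 0.00351 for Glul, 0.0253 for Slc6a11 and 0.027 for Slc1a3. The difference of Slc1a2 was 0.53 ± 0.10 in that fit, against 0.53 ± 0.17 with the filter, so only its error had changed. Once the Rag2-/- library of pair 1 was also left out, 0 members were called among 25 genes. The number of genes tested without the filter is not reported here, so no share is given. The part of astrocyte RNA in the OPC differences was not tested.

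The genotype effect in astrocytes was also set against the mean effect in the other 3 types. No member was called (differences of -0.23 to 0.09 on the log2 scale, edgeR adjusted p of 1 for each of the 8), nor was any of the 21368 genes, a share of 0%, with 5.14% of genes at an unadjusted p under 0.05 and 24 genes called by DESeq2. None of the 8 members was among the calls of either tool.

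Female and male libraries were compared in the same fits. No member was called in any type, where 0.0407% of all genes were called in astrocytes, 0.0296% in OPCs, 0.0362% in oligodendrocytes and 0.0467% in microglia. At an unadjusted p under 0.05 by edgeR, 1 member was found in astrocytes and 1 in oligodendrocytes, against 6.73% and 8.23% of all genes. In OPCs and microglia 0 were found, against 4.30% and 3.92%. Among all members and types, Slc38a3 in astrocytes had the largest sex difference relative to its error. Its normalised CPM in astrocytes was 325 to 429 in 5 female libraries and 204 to 318 in 7 male libraries. These ranges did not overlap, and how many of all genes did the same was not counted. The log2 difference of females minus males was 0.44 ± 0.12 (edgeR, unadjusted p = 0.00194, adjusted p = 0.633), with differences of 0.38 to 0.52 and adjusted p of 0.0548 to 0.928 under the alternatives tried. In oligodendrocytes it was 1.26 ± 0.55 with 3 female and 5 male libraries (edgeR adjusted p = 0.582), and in OPCs it was 0.05 ± 0.12.

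Other genes of the same pathways were read from a list of 34, of which 32 passed the low-count filter over all libraries. Against OPCs 17 of them were called higher in astrocytes and 10 lower, against oligodendrocytes 15 and 10, and against microglia 23 and 8. Of all genes tested, 17.1% were called higher and 25.4% lower against OPCs. The shares were 24% and 25.7% against oligodendrocytes, and 36.5% and 33.5% against microglia. All 4 genes of glycine cleavage were called higher in astrocytes than in each other type. Atp1b2, a beta subunit of the sodium pump, differed from microglia by 6.99 ± 0.23 on the log2 scale. Maob, a monoamine oxidase, and Grm3, a metabotropic glutamate receptor, differed from microglia by 7.81 ± 0.50 and 6.96 ± 0.20. Gldc, the glycine decarboxylase, exceeded oligodendrocytes by 4.48 ± 0.26, Slc1a4, a neutral amino acid carrier, by 4.45 ± 0.21 and Slc7a11, the cystine and glutamate exchanger, by 4.43 ± 0.27.

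Some pathway genes were higher in OPCs. Slc1a1, the glutamate carrier EAAC1, had a mean of 106 normalised CPM in OPCs and 6.95 in astrocytes, a log2 difference of -4.05 ± 0.34 for astrocytes minus OPCs. Gad1, a glutamate decarboxylase that makes GABA, stood at 32.1 and 1.89, and the GABA carrier Slc6a13 at 7.46 and 0.110. Markers of mural cells and fibroblasts (8) summed to 95.1 to 282 in OPC libraries and 112 to 172 in astrocyte libraries. Among them Dcn had means of 13.4 and 0.375 and Pdgfrb of 18.9 and 91.3. The part of such cells in the Slc6a13 level was not tested. Of the 3 glutamine carriers tested beside Slc38a3, none was called higher in astrocytes than in any other type. All 3 were called lower than in microglia, where 33.5% of all genes were. No pathway gene was called by genotype or by sex in any cell type, with 27 to 31 of the 34 tested.

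**Figure D5:**
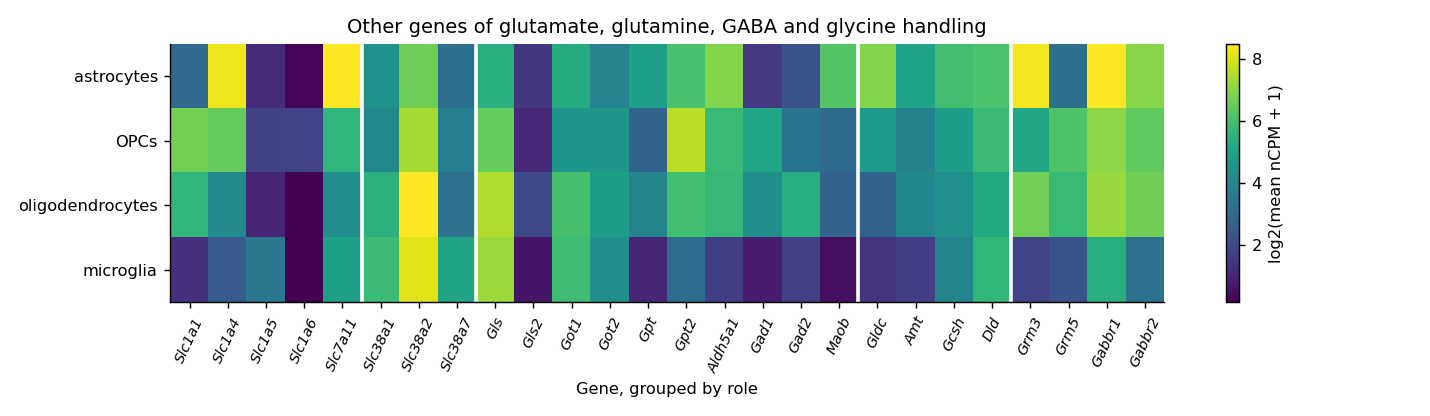
Mean level, log2(mean normalised CPM + 1), of 26 tested pathway genes by cell type, grouped by role from carriers at the left to metabotropic receptors at the right. Slc1a1 and Gad1 are brighter in OPCs (106 and 32.1 normalised CPM) than in astrocytes (6.95 and 1.89).

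The genes most like each member were found by Pearson's r of log2(normalised CPM + 1) over all 43 libraries, which share 12 mice and cluster by cell type, so r is given as a description. For Slc1a2 they were Aldoc, Acsl6 and Slc4a4 (r of 0.99 for each). For Slc1a3 they were S1pr1, Pla2g7 and Prdx6 (0.98 for each), and S1pr1 also led for Glud1 (0.97), followed by Frem2 and Cth (0.97 for each). For Slc6a11 they included Kcnk1 and Clu (0.99 for each), and for Slc38a3 Timp3 and Gpr37l1 (0.98 for each). For Abat they were Prnp, Fermt2 and Aldh5a1 (0.99, 0.99 and 0.98), the last of which encodes the next enzyme of GABA breakdown. Slc6a9 was most like Bpgm, Enpp2 and Syt11 (0.98, 0.98 and 0.97). Glul had the least close matches, with Lap3, Ctnna1 and Ptgr2 at 0.92, 0.88 and 0.87.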

How the data were processed

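RNA from immunopanned cortical glia of 12 mice was amplified, made into 43 libraries and sequenced by the authors, who pooled libraries of a cell type on the same lane. Per the labels, the authors aligned reads to GRCm39 with STAR 2.7.8a and counted them per gene with HTSeq. The deposited values are raw counts for 55416 genes, and the strand setting is not given in the sources used here. HTSeq's summary rows, which name no gene, held 33.5% to 52.0% of each library's total and were left out. Groups and pair numbers come from the sample titles. The 8 members and the gene lists were chosen with earlier results of these data known, and named genes were the members, the 3 pathway genes with the largest difference between astrocytes and each other type, and the 3 protein-coding genes most like each member, of which some items are not reported here.

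Genotype and sex were tested within each cell type with edgeR 4.0.16 (R 4.3.3; TMM factors, filterByExpr set to count 10 and total count 15, glmQLFit and glmQLFTest, both terms in the model). Cell types were contrasted in 1 fit of 8 groups over all libraries. Each SE of an edgeR difference was derived as the absolute log2 difference divided by the square root of its F statistic. P-values were adjusted by Benjamini-Hochberg over all genes tested, with a threshold of 0.05. The methods of the study used DESeq2, which was run here (1.42.0) as an alternative. Correlations used a pseudocount of 1 and 100000 permutations. The fits were run on simulated data with known changes, the same dispersion for every gene and no other difference between libraries than depth. That check does not cover carried-over RNA or the spread between the real libraries. Copies and 200-base stretches were read from the GRCm39 genome with GENCODE annotation. Alternatives were another scaling, no filter, other subsets of libraries, each replicate left out and a replicate block.

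The labels mark pairs, and libraries of the same pair number and genotype were taken to be 1 mouse across cell types. Deviations of littermates from their group means correlated at 0.11 to 0.16 on average within a cell type, and those of 1 mouse across types at 0.04. Libraries of a group differed by more than sampling noise, with at least 8.15 in chi-square per gene. Libraries held 6499417 to 23118497 gene counts, a depth that limits low genes most, such as Slc6a9 in microglia.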

Additional observations from a re-analysis of the deposited data

Results flagged for a closer look

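Of the 64 groups formed by 8 genes, 4 cell types and 2 genotypes, 2 held a library set apart from the others by Dixon's test at the 95% level, where chance alone gives about 1 in 20 groups. Slc1a2 in control astrocytes was 14640 normalised CPM in the library of pair 4, against 12040 to 12772 in the other 5. Abat in control OPCs was 98.8 normalised CPM in the library of pair 4, against 54.2 to 69.6 in the other 5. Both libraries are labelled as control of pair 4, a Rag2+/+ male.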

How the results depend on the processing

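The number of members called stayed within 1.5 times of the reported one for every comparison and alternative, leave-outs included, with 1 exception: the genotype comparison in OPCs called 4 members without the low-count filter, against 0. An alternative chosen after seeing the data, no filter and without the Rag2-/- OPC library of pair 1, called 0 members among 25 genes. With littermate pair or mouse as a replicate block no count of members changed, and Slc1a2 in OPCs had a genotype difference of 0.51 under the replicate block. On total gene counts, the differences between oligodendrocytes and microglia reversed to -0.36 for Slc1a3 and -0.47 for Glul, where the median over all genes moved from -0.09 to -0.98 on the log2 scale. Relative to that median they were 0.62 and 0.51, against 0.68 and 0.53 on the reported scale. Between OPCs and oligodendrocytes 5 members were called in control libraries alone, against 7, where all genes called fell from 8703 to 5351. Between oligodendrocytes and microglia 5 members were called in Rag2-/- libraries alone, against 7. All genes called there were 14522 in the reported fit and 11442 to 15968 over the alternatives. Counts over all genes depended more on settings: by genotype without the filter 90 genes were called in OPCs, 30 in astrocytes, 9 in microglia and 14 in oligodendrocytes, and by DESeq2 5, 1, 3 and 203. By sex they were 72, 118, 25 and 99 without the filter and 13, 18, 11 and 434 by DESeq2. Of the fit of the difference between types, 74 were called without the filter and 24 by DESeq2. Between astrocytes and OPCs 4970 genes were called in Rag2-/- libraries alone and 5924 in controls alone, and between OPCs and oligodendrocytes 5402, 5351 and, on total counts, 14634. The cause was not tested. Slc6a9 in microglia, at 1 to 18 reads a library, was too shallow to pass the low-count filter by genotype.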
